A study of Capra hircus with 6 samples.

Results

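The genes described here make, take up, sense, store and export cholesterol in the ovary of the goat (Capra hircus). They are a list of 34 genes picked by function. It holds enzymes of cholesterol synthesis, the sterol-sensing machinery, the lipoprotein receptor SCARB1, and lysosomal and other intracellular cholesterol carriers. The esterifying enzyme SOAT1 and the exporters ABCA1 and ABCG1 complete it. The list was drawn up with earlier results of these data known. Of the 34, 32 were found among the 17504 genes of the deposited tables, and all 32 passed the filter on low values (1 FPKM or more in 3 or more libraries). IDI1 and CYP51A1 matched no gene by symbol or synonym and are not described. The groups were 3 Jintang black goats, a breed labelled prolific, and 3 Tibetan goats, a breed labelled non-prolific. Each library held RNA from the ovary of 1 goat in its follicular phase, when follicles grow towards ovulation. Breed, with its prolificacy, was the only label that differed between the groups. No treatment, age or batch is given in the sources used here. Tibetan 2 had a differently styled file label from the remaining 5 goats, for which no reason was found; it was used as an ordinary replicate.

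Cholesterol is built from acetyl-CoA through mevalonate and squalene, and it is the starting material of every ovarian steroid hormone. When sterol is scarce, the escort protein SCAP carries SREBF2 and its relative SREBF1 to the Golgi, where the proteases MBTPS1 and MBTPS2 release a fragment that switches on genes of synthesis and uptake. INSIG1 and INSIG2 hold SCAP back when sterol is plentiful. Theca and luteal cells also take cholesterol from lipoproteins, release it from lysosomes through LIPA, NPC1 and NPC2, keep it as esters made by SOAT1 and return it to lipoproteins through ABCA1 and ABCG1.

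FPKM scales the fragments of a gene to its length and to the size of the library, so levels of different genes can be compared per length. The sum of FPKM ran from 602511 to 669309 in the Jintang libraries and from 602255 to 682801 in the Tibetan libraries. Absolute depth is unknown. Ratios of the same low genes between libraries put the deepest library, Tibetan 2, at about 1.10 times the depth of the shallowest, Jintang 3. Only a narrow range of ratios was searched, so a large difference in depth could not have been returned. The closest pair of libraries crossed the breeds (Jintang 3 and Tibetan 2, Spearman correlation across genes 0.964), and Jintang 2 was the library least like Tibetan 1 (0.793). NR5A1, a transcription factor of steroid-producing cells, was present in every ovary, at 22.9, 27.6 and 32.7 FPKM in Jintang 1, 2 and 3 and at 29.3, 19.3 and 62.6 FPKM in Tibetan 1, 2 and 3. Fold changes below are Jintang minus Tibetan on log2(FPKM + 1), a scale on which changes of low genes look smaller than they are. All p-values measure the spread between single goats.

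The synthesis enzymes stood high in 1 goat of each breed. HMGCS1, which makes the HMG-CoA that is reduced to mevalonate, stood at 26.8, 584 and 32.3 FPKM in Jintang 1, 2 and 3 and at 23.8, 34.2 and 175 FPKM in Tibetan 1, 2 and 3. Jintang 2 held 18.1 times the level of the next Jintang goat, and Tibetan 3 held 5.13 times that of the next Tibetan goat. FDPS, which makes farnesyl diphosphate, was at 29.1, 528 and 47.1 FPKM in the Jintang ovaries and at 28.5, 37.9 and 483 FPKM in the Tibetan ovaries. Here the high goats of the breeds were nearly level, with Jintang 2 at 1.09 times Tibetan 3.

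Other enzymes before squalene, PMVK aside, had the same 2 high goats with smaller ranges. The thiolase ACAT2 stood at 17.4, 200 and 24.3 FPKM in Jintang 1, 2 and 3 and at 20.8, 21.6 and 78.4 FPKM in Tibetan 1, 2 and 3. The decarboxylase MVD had 11.5, 170.0 and 18.1 FPKM in Jintang goats, against 9.70, 11.1 and 46.4 FPKM in Tibetan goats. The groups overlapped in both genes, because Jintang 1 and 3 lay below Tibetan 3. Mevalonate kinase (MVK) ran from 8.09 to 87.6 FPKM in Jintang ovaries and from 11.1 to 31.9 FPKM in Tibetan ovaries. FDFT1, the squalene synthase at the branch point towards sterols, had the smallest ratio of highest to lowest of the 16 synthesis enzymes (4.42), at 29.7 to 132 FPKM in Jintang ovaries and 41.3 to 84.8 FPKM in Tibetan ovaries. PMVK, the phosphomevalonate kinase, was the 1 synthesis gene in which Tibetan 3 was not second: it measured 23.9, 55.2 and 7.26 FPKM in Jintang 1, 2 and 3 and 9.88, 4.14 and 22.4 FPKM in Tibetan 1, 2 and 3.

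The enzymes that turn squalene into cholesterol followed. SQLE, the squalene epoxidase, stood at 12.8, 110 and 10.2 FPKM in Jintang 1, 2 and 3 and at 9.01, 12.5 and 54.6 FPKM in Tibetan 1, 2 and 3. MSMO1, the sterol C4-methyl oxidase, reached 45.7, 499 and 34.02 FPKM in Jintang goats, against 20.0, 41.3 and 264 FPKM in Tibetan goats. In both, Jintang 2 and Tibetan 3 stood apart from the other 4 ovaries, in which MSMO1 lay between 20.0 and 45.7 FPKM. DHCR7, a reductase of the final steps, was at 13.7, 191 and 9.91 FPKM in the Jintang ovaries and at 13.4, 8.32 and 55.3 FPKM in the Tibetan ovaries. TM7SF2, a sterol C14 reductase, had the widest range of the synthesis genes, with its highest value 46.7 times its lowest. It measured 52.9, 249 and 14.0 FPKM in Jintang 1, 2 and 3 and 8.02, 5.33 and 144 FPKM in Tibetan 1, 2 and 3, so Jintang 1 also lay above the other 3 low ovaries.

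The 5 remaining late enzymes kept this order. The cyclase LSS, which closes the sterol rings, ran from 8.82 to 64.4 FPKM in Jintang ovaries and from 10.5 to 42.0 FPKM in Tibetan ovaries. NSDHL, which acts in removal of the C4 methyl groups, ran from 16.3 to 128 FPKM in Jintang and from 11.2 to 92.0 FPKM in Tibetan ovaries. The isomerase EBP ran from 10.2 to 102 FPKM in Jintang and from 11.9 to 83.4 FPKM in Tibetan ovaries. In NSDHL and EBP the 2 high goats lay close together, with Jintang 2 at 1.39 and 1.22 times Tibetan 3. In HSD17B7, which reduces a 3-keto sterol and also oestrone, they lay farthest apart, at 36.7 FPKM in Jintang 2 and 7.81 FPKM in Tibetan 3. SC5D, a desaturase, reached 84.9 FPKM in Jintang 2 and 45.1 FPKM in Tibetan 3.

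**Figure D1:**
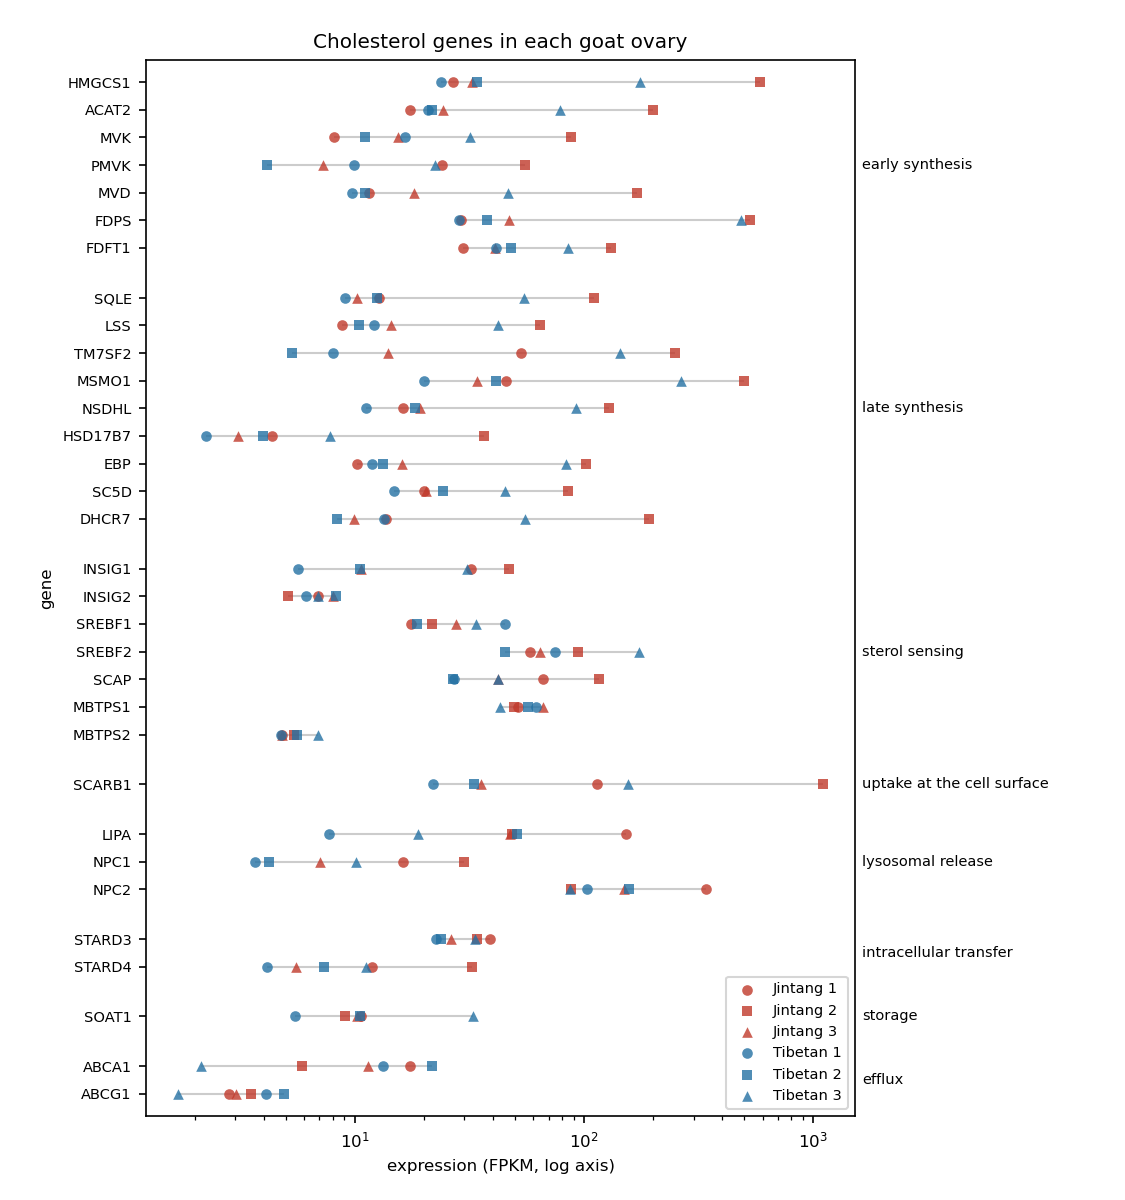
Expression of the 32 measured cholesterol genes in each goat (FPKM, log axis), ordered by role. Jintang goats are red and Tibetan goats blue, the shape gives the goat's number, and the grey line spans the 6 goats. In the synthesis rows Jintang 2 (red square) is at the right end of all 16 lines and Tibetan 3 (blue triangle) is next to it in 15.

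Jintang 2 was highest in 16 of the 16 measured synthesis genes, and Tibetan 3 was second in 15 of them. Over all 13067 genes tested, Jintang 2 was highest in 20.6%, and Jintang 2 followed by Tibetan 3 was the order in 8.85%. When the list was chosen, Jintang 2 was already known to be highest in most cholesterol genes. These shares therefore describe the list and test nothing. The highest value was at least 4 times the lowest in all 16 synthesis genes, against 26.2% of all genes tested. The median ratio of highest to lowest was 12.8 for synthesis genes and 2.46 for all genes tested. Summed over the 16 genes, the level was 331, 3222 and 327 FPKM in Jintang 1, 2 and 3 and 253, 305 and 1710 FPKM in Tibetan 1, 2 and 3. These genes thus took 0.516% of all FPKM in Jintang 2 and 0.280% in Tibetan 3, and between 0.0421% and 0.0550% in the other 4 ovaries. Each ovary was sequenced whole, so more cells of a type and more RNA per cell cannot be told apart.

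The sterol-sensing genes differed in which goats were high. INSIG1, itself a target of SREBF2 and a brake on it, stood at 32.01, 47.2 and 10.6 FPKM in Jintang 1, 2 and 3 and at 5.65, 10.6 and 30.9 FPKM in Tibetan 1, 2 and 3. Jintang 1 thus stood level with Tibetan 3 in INSIG1, while its synthesis genes other than PMVK and TM7SF2 stayed near those of the low ovaries. INSIG2, the relative of INSIG1, varied by no more than 1.62 times between any goats, at 6.92, 5.11 and 8.0 FPKM in the Jintang ovaries and 6.14, 8.26 and 6.88 FPKM in the Tibetan ovaries. The ratio of INSIG1 to INSIG2 was therefore 4.63, 9.24 and 1.33 in Jintang 1, 2 and 3 and 0.920, 1.28 and 4.50 in Tibetan 1, 2 and 3.

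SREBF2, the regulator of cholesterol synthesis, was highest in Tibetan 3. It was at 58.3, 93.8 and 63.9 FPKM in the Jintang ovaries and at 74.9, 45.3 and 174 FPKM in the Tibetan ovaries. SREBF1, whose main form in liver drives fatty acid synthesis, had another order, at 17.6, 21.6 and 27.6 FPKM in Jintang 1, 2 and 3 and at 45.2, 18.6 and 33.6 FPKM in Tibetan 1, 2 and 3. Its highest goat was Tibetan 1, in which 8 of the 16 synthesis genes had their lowest value. SREBF2 exceeded SREBF1 in every ovary, by 3.31, 4.35 and 2.31 times in the Jintang goats and by 1.65, 2.43 and 5.18 times in the Tibetan goats.

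SCAP, the escort protein, stood at 66.5, 116 and 42.0 FPKM in Jintang 1, 2 and 3 and at 27.1, 26.8 and 42.2 FPKM in Tibetan 1, 2 and 3. Only Jintang 3 lay below the highest Tibetan ovary, and by a small gap. The proteases were flat. MBTPS1 ran from 49.6 to 66.0 FPKM in Jintang ovaries and from 43.0 to 61.5 FPKM in Tibetan ovaries. MBTPS2 ran from 4.80 to 5.44 FPKM in Jintang ovaries and from 4.78 to 6.87 FPKM in Tibetan ovaries.

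**Figure D2:**
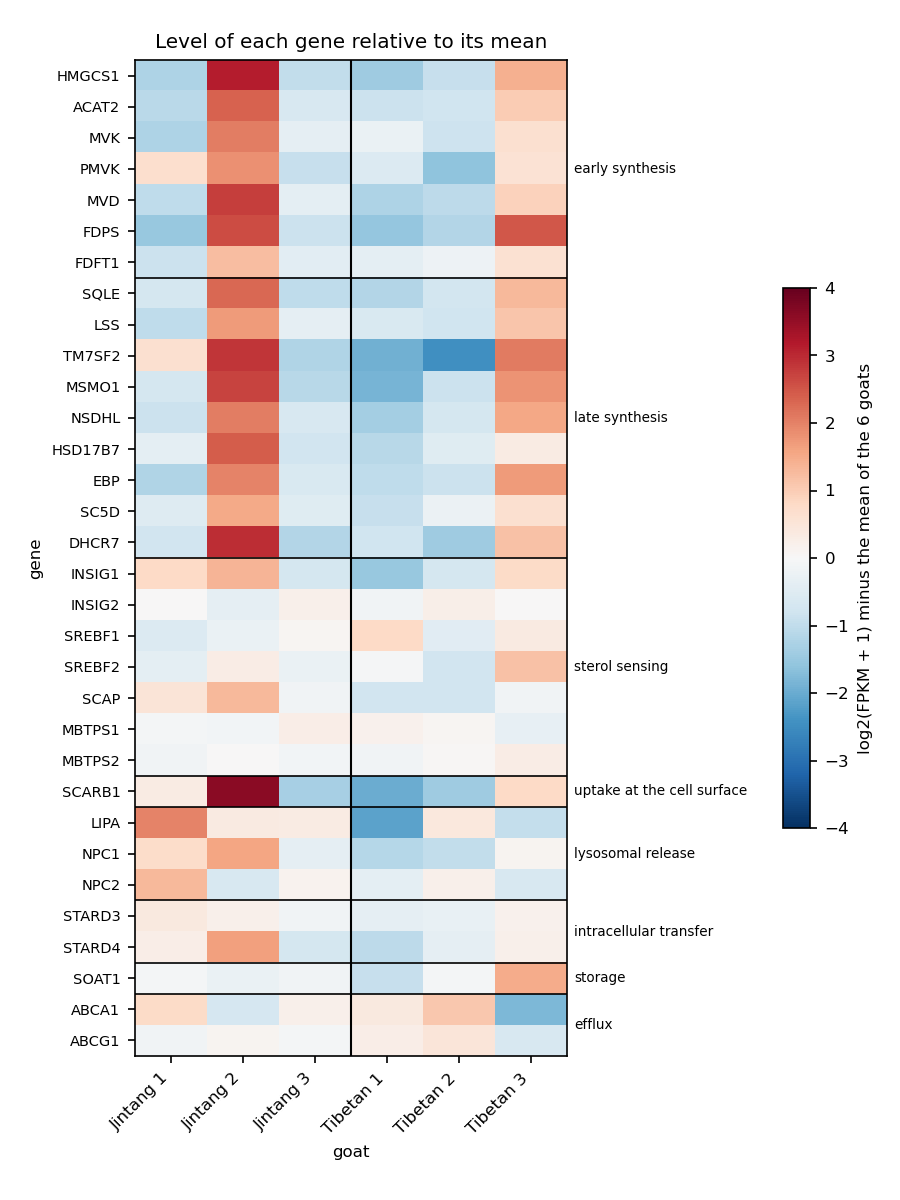
Level of each cholesterol gene in each goat as log2(FPKM + 1) minus the mean of the 6 goats, red above and blue below the mean, with the Jintang goats left of the vertical line. The synthesis rows are red in Jintang 2 and Tibetan 3, INSIG2, MBTPS1 and MBTPS2 are nearly white, and LIPA and NPC2 are darkest red in Jintang 1.

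SCARB1, the receptor that draws cholesteryl esters from HDL, had the widest range of all 32 genes, its highest value being 50.4 times its lowest. It measured 114, 1099 and 35.4 FPKM in Jintang 1, 2 and 3 and 21.8, 33.0 and 156 FPKM in Tibetan 1, 2 and 3. Jintang 2 lay 7.04 times above Tibetan 3, a wider gap than in any synthesis gene. Jintang 1 came next and lay above Jintang 3, Tibetan 1 and Tibetan 2. The ratio of SCARB1 to HMGCS1 was 4.25, 1.88 and 1.09 in Jintang 1, 2 and 3 and 0.916, 0.965 and 0.891 in Tibetan 1, 2 and 3.

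Genes that free lipoprotein cholesterol from the lysosome were led by Jintang 1 or Jintang 2. LIPA, the acid lipase that splits cholesteryl esters, stood at 152, 48.5 and 47.4 FPKM in Jintang 1, 2 and 3 and at 7.69, 50.9 and 18.9 FPKM in Tibetan 1, 2 and 3. NPC2, the soluble carrier that hands cholesterol to NPC1, had 339, 87.7 and 150 FPKM in Jintang goats, against 103, 157 and 87.2 FPKM in Tibetan goats. Jintang 1 was highest in both, and Jintang 2 and Tibetan 3 were the lowest pair in NPC2. NPC1, the membrane protein that exports the cholesterol, was highest in Jintang 2, at 16.2, 29.8 and 7.02 FPKM in the Jintang ovaries and 3.66, 4.23 and 10.1 FPKM in the Tibetan ovaries. NPC2 exceeded NPC1 by 21.0, 2.94 and 21.3 times in Jintang 1, 2 and 3 and by 28.1, 37.2 and 8.60 times in Tibetan 1, 2 and 3.

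The 2 genes of cholesterol transfer within the cell differed in range. STARD4, which moves sterol between membranes, stood at 11.9, 32.3 and 5.52 FPKM in Jintang 1, 2 and 3 and at 4.14, 7.32 and 11.2 FPKM in Tibetan 1, 2 and 3. STARD3, which sits on late endosomes, ran from 26.2 to 38.8 FPKM in Jintang ovaries and from 22.6 to 33.4 FPKM in Tibetan ovaries. In PMVK, INSIG1, SCAP, NPC1 and STARD4 the order was Jintang 2 followed by Jintang 1. These are 5 of 32 genes (15.6%), against 4.39% of all genes tested. Jintang 2 was highest in 21 of the 32 genes (65.6%), against 20.6% of all genes tested. The list was chosen with this lead of Jintang 2 known, so the shares describe the list and test nothing.

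Storage and efflux went by other orders. SOAT1, which esterifies cholesterol for lipid droplets, stood at 10.6, 9.05 and 10.2 FPKM in Jintang 1, 2 and 3 and at 5.46, 10.5 and 32.8 FPKM in Tibetan 1, 2 and 3. Only Tibetan 3 stood high, so the 2 goats with high synthesis genes differed here, Jintang 2 holding 0.276 times the level of Tibetan 3. ABCA1, which exports cholesterol to lipid-poor apolipoprotein, was lowest in those 2 goats, at 17.5, 5.85 and 11.4 FPKM in the Jintang ovaries and 13.2, 21.7 and 2.14 FPKM in the Tibetan ovaries. ABCG1, which loads HDL, was low throughout, at 2.83, 3.52 and 3.04 FPKM in the Jintang ovaries and 4.08, 4.89 and 1.70 FPKM in the Tibetan ovaries. Tibetan 3 was the lowest in both transporters. The ratio of SCARB1 to ABCA1 was 6.53, 188 and 3.09 in Jintang 1, 2 and 3 and 1.65, 1.52 and 72.9 in Tibetan 1, 2 and 3.

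Steroid genes and cell markers varied beside these levels. STAR, which brings cholesterol into mitochondria, stood at 139, 3130.0 and 30.8 FPKM in Jintang 1, 2 and 3 and at 8.91, 28.6 and 139 FPKM in Tibetan 1, 2 and 3. The 10 luteal and steroidogenic markers summed to 6471, 23346 and 587 FPKM in the Jintang ovaries and to 415, 637 and 3133 FPKM in the Tibetan ovaries. Of them, 5 were highest in Jintang 2, 3 in Tibetan 3 and 2 in Jintang 1. PTGFR, led by Jintang 1, stood at 274, 259 and 19.4 FPKM in Jintang 1, 2 and 3 and at 21.8, 32.3 and 9.23 FPKM in Tibetan 1, 2 and 3. PRLR, also led by Jintang 1, stood at 53.4, 1.35 and 0.47 FPKM in the Jintang ovaries and at 0.08, 0.28 and 2.03 FPKM in the Tibetan ovaries. None of the 10 is among the cholesterol genes, and LHCGR and NR5A1 are also theca markers. TIMP1, a protease inhibitor that many stromal cells also make, was the highest of the 10 in every ovary, at 5304, 9215 and 307 FPKM in the Jintang ovaries and 253, 371 and 1298 FPKM in the Tibetan ovaries. Tibetan 1, with the lowest sum of the 10, also had the lowest value of 16 of the 32 cholesterol genes, against 20.8% of all genes tested. The high goats differed in theca markers, of which 4 of 5 were found, with sums of 33.7, 62.7 and 153 FPKM in Jintang 1, 2 and 3 and of 53.5, 187 and 841 FPKM in Tibetan 1, 2 and 3. CYP17A1, the androgen-making enzyme of theca cells, gave 719 FPKM of the sum in Tibetan 3, the highest ovary in all 4. Granulosa markers (9 of 9 found) summed to 219, 253 and 330.2 FPKM in the Jintang ovaries and to 196, 437 and 1285 FPKM in the Tibetan ovaries. The inhibin subunit INHA made up 1194 FPKM of the sum in Tibetan 3, which was the lowest ovary in INHBA (15.6 FPKM), and its mean log2(FPKM + 1) over the 9 markers (3.78) lay below those of Jintang 3 (4.34) and Tibetan 2 (4.58). Proliferation markers (8 of 8 found) were highest in Jintang 2, at 50.5, 251 and 83.2 FPKM in the Jintang ovaries, against 37.9, 77.6 and 59.3 FPKM in the Tibetan ovaries. The part of any of these cell types in the levels of the cholesterol genes was not tested.

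Macrophage markers, of which 11 of 12 were found, summed to 1569, 179 and 378 FPKM in Jintang 1, 2 and 3 and to 101, 260 and 199 FPKM in Tibetan 1, 2 and 3. Jintang 1 was highest in 11 of the 11, as it was in LIPA and NPC2, which macrophages express strongly. Their part in the levels of LIPA and NPC2 was not tested. The adipocyte hormones ADIPOQ and LEP were at or near 0 in every ovary, with at most 0.43 FPKM in Jintang ovaries and 0.18 FPKM in Tibetan ovaries. Adipocyte markers (7 of 8 found) summed to between 21.2 and 63.0 FPKM in Jintang ovaries and between 13.03 and 54.7 FPKM in Tibetan ovaries. Oocyte markers (6 of 7 found) summed to at most 22.8 FPKM in a Jintang ovary and 19.0 FPKM in a Tibetan ovary. The 2 erythrocyte markers that were found, ALAS2 and SLC4A1, did not exceed 0.05 FPKM in a Jintang ovary or 0.08 FPKM in a Tibetan ovary.

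**Figure D3:**
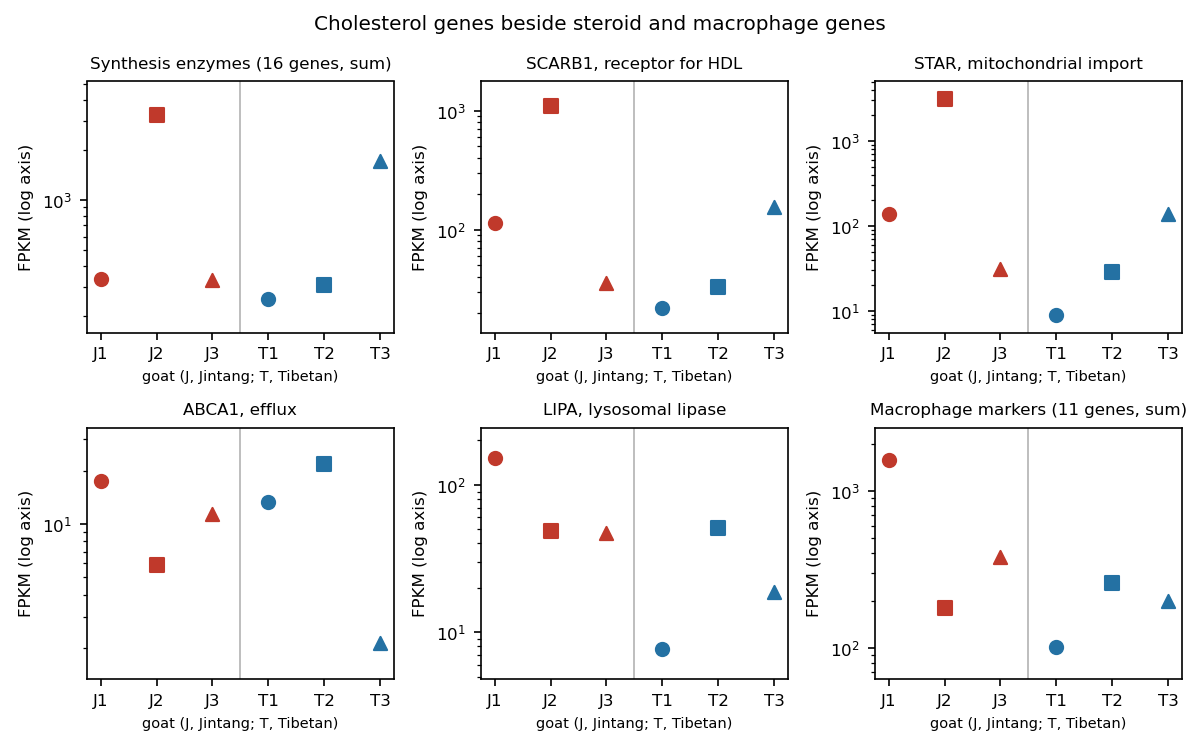
FPKM in each goat (log axis, each panel with its own scale) for the sum of the 16 synthesis enzymes, SCARB1, STAR, ABCA1, LIPA and the sum of the 11 macrophage markers, with Jintang goats in red left of the line and Tibetan goats in blue. Jintang 2 and Tibetan 3 are the highest 2 points for synthesis, SCARB1 and STAR (with Jintang 1 level with Tibetan 3 in STAR) and the lowest 2 for ABCA1, and Jintang 1 is highest for LIPA and the macrophage markers.

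Between the breeds, none of the 32 genes passed the limma test at an adjusted p under 0.05, nor did any of the 13067 genes tested (0.0%). The smallest adjusted p among the 32 was 0.743. By size, the difference was largest in LIPA, SCARB1 and TM7SF2 of the 32. LIPA averaged 82.6 ± 59.9 FPKM in Jintang and 25.8 ± 22.4 FPKM in Tibetan ovaries (SD, n = 3 each), a log2 fold change of 1.78 (SE 0.69, limma adjusted p = 0.743). SCARB1 averaged 416 ± 593 FPKM in Jintang and 70.3 ± 74.5 FPKM in Tibetan ovaries, a log2 fold change of 1.75 (SE 1.2) with a 95% interval from -1.01 to 4.50. TM7SF2 averaged 105 ± 126 FPKM in Jintang and 52.3 ± 79.1 FPKM in Tibetan ovaries, a log2 fold change of 1.54 (SE 1.32). For SCARB1 and TM7SF2 the SD within each breed exceeded the mean of that breed.

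The highest synthesis genes averaged almost the same in both breeds or differed by less than their spread. FDPS averaged 202 ± 283 FPKM in Jintang and 183 ± 260 FPKM in Tibetan ovaries, and its interval ran from -2.82 to 3.13. HMGCS1 averaged 214 ± 320.1 FPKM in Jintang and 77.7 ± 84.5 FPKM in Tibetan ovaries (-2.14 to 3.35). MSMO1 averaged 193 ± 265 FPKM in Jintang and 109 ± 135 FPKM in Tibetan ovaries (-2.09 to 3.29). These intervals hold large differences in either direction. For 3 goats against 3, an exact permutation test of a single gene cannot go below p = 0.10. The intervals were narrow for the flat genes INSIG2 (-0.73 to 0.56), MBTPS1 (-0.56 to 0.67) and MBTPS2 (-0.77 to 0.46), which leave room for less than a doubling either way.

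At an unadjusted p under 0.05, 3 of the 32 genes (9.38%) were higher in Jintang ovaries and 0 were lower, against 2.82% and 3.35% of all genes tested. They were LIPA, SCAP and NPC1, none of them a synthesis enzyme. The list was chosen with the lead of a Jintang goat in most cholesterol genes known. The shares set beside all genes tested here therefore describe the list and test nothing. With a goat left out, the log2 fold change of LIPA was lowest without Tibetan 1 (1.16) and was 1.24 without Jintang 1, the goat high in macrophage markers. The part of macrophages in it was not tested. SCAP averaged 74.7 ± 37.6 FPKM in Jintang and 32.05 ± 8.83 FPKM in Tibetan ovaries (log2 fold change 1.11, SE 0.40). NPC1 averaged 17.7 ± 11.5 FPKM in Jintang and 6.01 ± 3.59 FPKM in Tibetan ovaries (1.32, SE 0.54), and all 3 genes had a limma adjusted p of 0.743. No cholesterol gene had breeds that did not overlap, which occurred with Jintang higher in 3.20% and with Jintang lower in 6.70% of all genes tested.

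Differences were positive in 25 of 32 genes, against 5362 of the 13067 genes tested. The median log2 fold change of the 32 was 0.37, against -0.10 for all genes tested. When the list was chosen, the lead of a Jintang goat in most cholesterol genes was known, which favours positive differences. The count and the median therefore describe the list and are no independent test of breed. With median-ratio scaling between libraries, 28 of the 32 were positive. By role, the median was 0.42 for 7 early and 0.40 for 9 late synthesis genes and 1.32 for 3 lysosomal genes. It was -0.09 for 7 sensing genes, the value of INSIG2, which turned to 0.0256 with median-ratio scaling. The 2 genes of transfer within the cell stood at 0.31 (STARD3) and 0.81 (STARD4). SREBF1 (-0.46), SOAT1 (-0.31) and SREBF2 (-0.25) had the lowest values. Median-ratio scaling moved the median of all genes by 0.12, to 0.02, and the median of the cholesterol genes to 0.50.

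**Figure D4:**
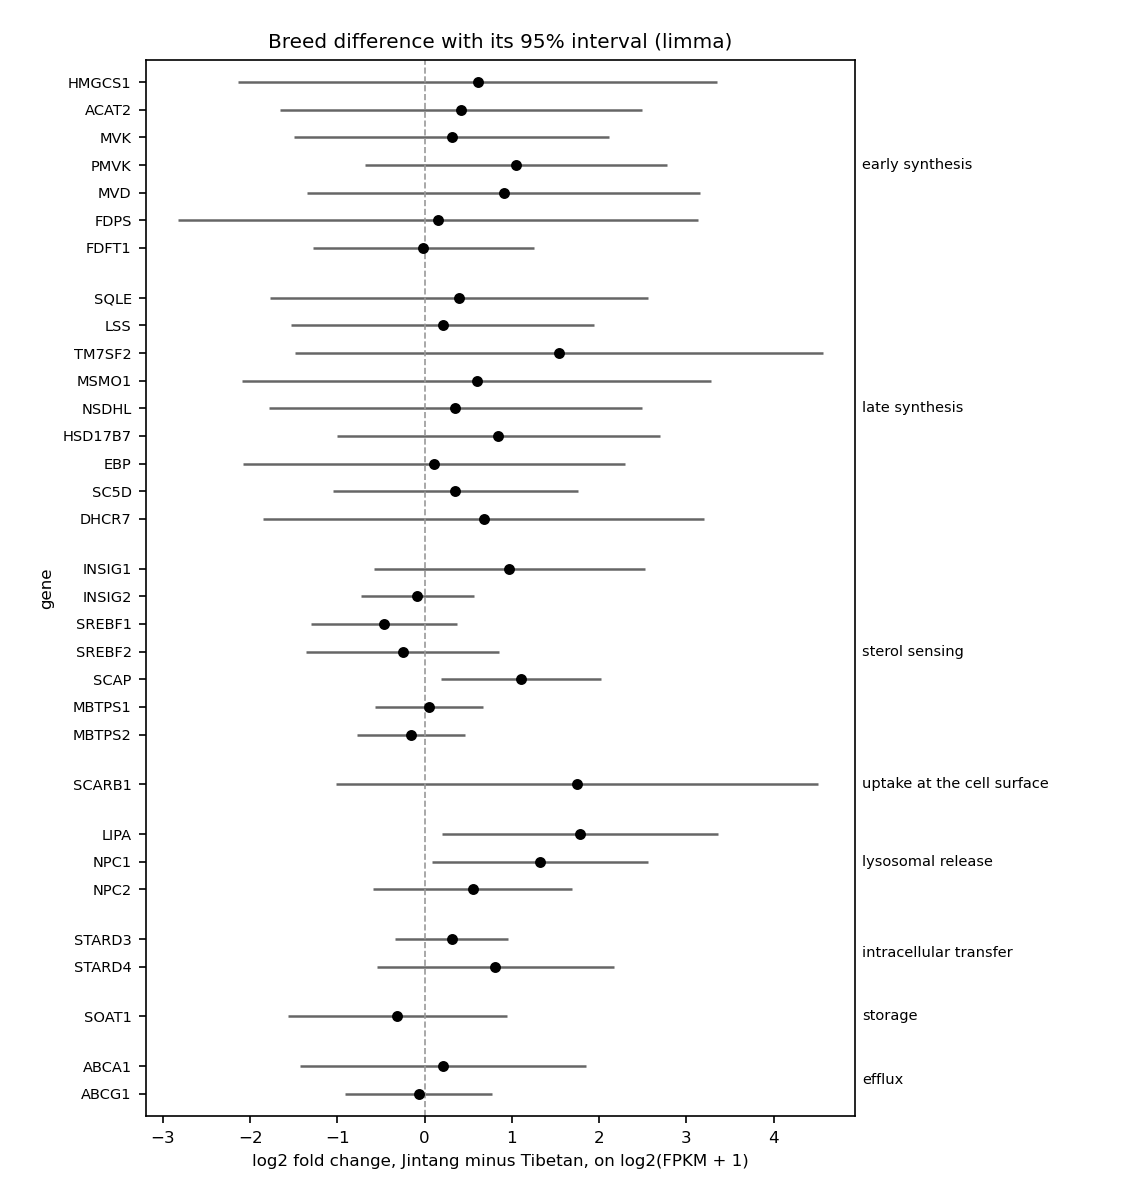
Log2 fold change of each cholesterol gene, Jintang minus Tibetan on log2(FPKM + 1), with its 95% interval from limma (n = 3 goats per breed). The unadjusted intervals of SCAP, LIPA and NPC1 lie above 0, and those of the other 29 genes include 0, the narrowest belonging to MBTPS1, MBTPS2 and STARD3.

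Most of these differences depended on single goats. Without Jintang 2 the median of the 32 genes was -0.23, and 2 of 16 synthesis genes were positive, PMVK (0.39) and TM7SF2 (0.49). FDPS then stood at -1.11 and HMGCS1 at -0.82. Without Tibetan 3 the median was 1.07 and all 16 synthesis genes were positive. The median was 0.13 without Tibetan 1, 0.20 without Tibetan 2, 0.86 without Jintang 1 and 0.72 without Jintang 3. In 20 of the 32 genes, 14 of them synthesis genes, the sign of the difference changed with some goat left out. The other 12 kept their sign with each goat left out: INSIG1, SCAP, SCARB1, LIPA, NPC1, NPC2, STARD3, STARD4, PMVK and TM7SF2 stayed positive, and SREBF1 and MBTPS2 stayed negative. NPC2 fell to 0.03 without Jintang 1, against 0.55 with all goats. How often the sign changed over all genes tested was not counted, so these counts may not be particular to the list. The median of all genes tested ran from -0.14 (without Jintang 3) to -0.05 (without Jintang 1). None of the 32 passed the limma test with a goat left out, the smallest adjusted p being 0.218 without Jintang 3. At an unadjusted p under 0.05 stood 0 of the 32 genes without Tibetan 1 (2.57% of all genes tested) and 7 without Jintang 3 (14.3% of all genes tested), against 3 with all goats (6.17%).

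**Figure D5:**
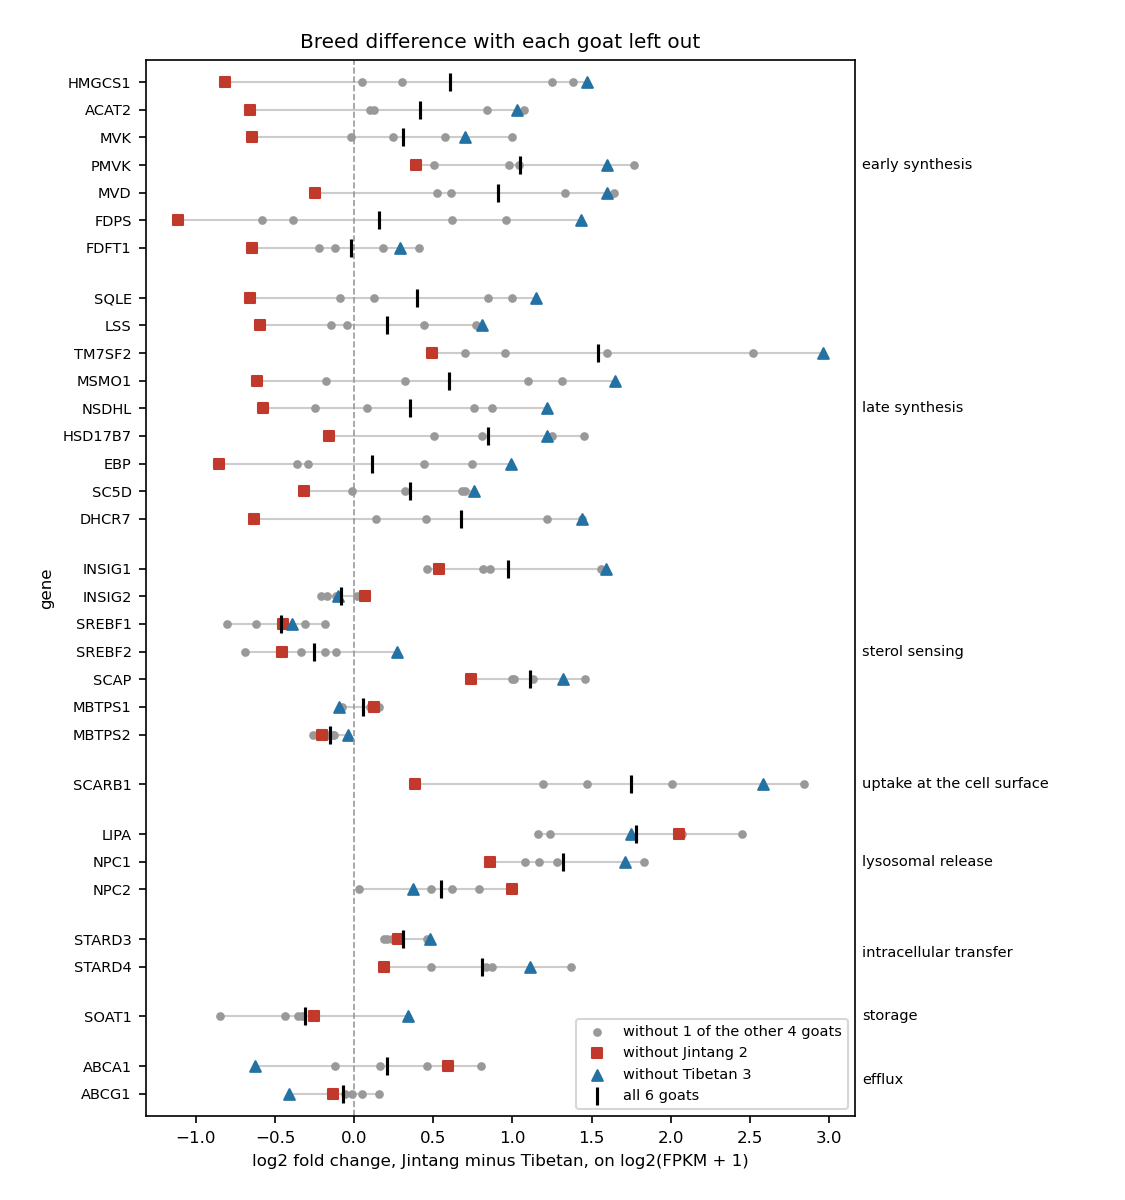
Log2 fold change of each cholesterol gene, Jintang minus Tibetan on log2(FPKM + 1), with all 6 goats (black tick) and with each goat left out. Red squares (without Jintang 2) lie left of 0 in 14 of 16 synthesis genes, blue triangles (without Tibetan 3) lie right of 0 in all 16, and SCAP, LIPA and NPC1 stay right of 0 throughout.

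A further 49 genes of cholesterol handling were listed, of which 46 were found and 41 tested. None passed the limma test, and the median log2 fold change was -0.03. At an unadjusted p under 0.05, 2 (4.88%) were higher in Jintang ovaries and 0 were lower. APOA1, the main protein of HDL, measured 6824, 3581 and 251 FPKM in Jintang 1, 2 and 3 and 136, 308 and 154 FPKM in Tibetan 1, 2 and 3 (log2 fold change 3.29, SE 1.09, limma adjusted p = 0.743). CD36, a scavenger receptor that also binds modified lipoproteins, had 89.7, 7.23 and 8.82 FPKM in Jintang goats, against 0.33, 9.68 and 2.54 FPKM in Tibetan goats (2.40, SE 1.02). Jintang 1 was highest in both, and the breeds overlapped in both. Of the further genes with a negative difference, the 2 with the smallest p were LCAT and ERLIN2. LCAT, which esterifies cholesterol on HDL, averaged 12.3 ± 2.27 FPKM in Jintang and 23.5 ± 10.2 FPKM in Tibetan ovaries (-0.79, SE 0.37). ERLIN2, which takes part in sterol-driven breakdown at the endoplasmic reticulum, averaged 26.3 ± 10.5 FPKM in Jintang and 43.5 ± 18.02 FPKM in Tibetan ovaries (-0.69, SE 0.38). Jintang 2 was highest in 9 of the 41 genes (22.0%), close to its 20.6% of all genes tested.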

How the data were processed

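Total RNA from 6 goat ovaries was isolated with TRIzol and went into NEBNext libraries, as the labels' protocols state. The authors deposited 1 FPKM value per gene and goat. Tools listed in the submitters' processing notes are RSEM 1.2.0, TopHat2 2.0.10 and Bowtie2 2.1.0, with no role stated. The genome build, gene models and strand setting were not given in the sources used here. Coordinates are therefore left out, and how reads of near-identical gene copies were divided is unknown. FPKM is relative within a library. Values were not rescaled.

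GeneIDs were matched to symbols of RefSeq assembly ARS1.2 (16459 by ID, 9 by transcript accession). CYP11A1 and CYP17A1 were found by synonym, and 3BHSD was taken for HSD3B1. Genes with at least 1 FPKM in 3 of 6 libraries were tested with limma 3.58.1 in R 4.3.3 (eBayes with trend) on log2(FPKM + 1), with a term for breed alone, 2-sided, p-values adjusted by Benjamini-Hochberg over all 13067 genes. The procedure was run on simulated data in which genes varied independently, which cannot show its power for genes that vary together. Relative depth came from ratios of genes between 0.15 and 1 FPKM. Python 3.11.15, pandas 2.3.3, numpy 2.4.6 and matplotlib 3.10.9 were used.

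The members and lists were chosen with earlier results of these data known, among them that Jintang 2 was highest in most cholesterol genes. The text names all measured members and, of the further genes, the 2 per direction with the smallest p. Alternatives were 2 other pseudocounts, 2 other filters, 3 scalings, 3 variance models, the goat number as a block and leaving out each goat. Planned promoter and protein comparisons were not made, since no sequences were used.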

Additional observations from a re-analysis of the deposited data

How the results depend on the processing

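No cholesterol gene passed under any of the 17 alternatives, and no gene of the whole table did, except that limma called 13 genes without Jintang 3 (0 to 13 over the leave-outs, none of them a cholesterol gene). The breeds did not overlap in 0 to 8 cholesterol genes over the leave-outs: 8 (25.0%) without Tibetan 3 and 6 (18.8%) without Jintang 3, against 26% and 33.6% of all genes tested in the same fits. With quantile normalization it was 1 (SCAP, Jintang higher, 3.12%), against 9.59% of all genes. The median log2 fold change of the cholesterol genes ran from 0.36 (array weights) to 0.50 (median-ratio scaling) over the 11 alternatives that keep all goats. With the replicate block it was 0.37 and the smallest adjusted p of a cholesterol gene was 0.952, with 581 genes of the whole table at an unadjusted p under 0.05 against 806 without it. The sources used here do not say that the goat numbers pair the animals. Same-numbered goats correlated at -0.02, -0.21 and -0.47 in their deviations from the breed means. These values cannot decide it, because deviations of 3 goats from their own mean are not independent. Median-ratio scaling turned FDFT1 to 0.11, INSIG2 to 0.0256 and ABCG1 to 0.0278, and array weights turned MBTPS1 to -0.00241. The cause was not tested.

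With each goat left out, log2 fold changes that changed sign ran from -0.82 to 1.47 (HMGCS1), -0.66 to 1.07 (ACAT2), -0.64 to 1.00 (MVK), -0.25 to 1.64 (MVD), -1.11 to 1.43 (FDPS), -0.65 to 0.41 (FDFT1), -0.66 to 1.15 (SQLE), -0.60 to 0.81 (LSS), -0.61 to 1.65 (MSMO1), -0.58 to 1.22 (NSDHL), -0.16 to 1.45 (HSD17B7), -0.85 to 0.99 (EBP), -0.32 to 0.75 (SC5D), -0.63 to 1.44 (DHCR7), -0.21 to 0.0693 (INSIG2), -0.69 to 0.27 (SREBF2), -0.10 to 0.16 (MBTPS1), -0.85 to 0.34 (SOAT1), -0.63 to 0.80 (ABCA1) and -0.41 to 0.15 (ABCG1). The lowest value fell without Jintang 2 in all 14 synthesis genes among these. Absolute depth is unknown, so the counting error of the lowest genes, such as ABCG1, cannot be given.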
